A study of Drosophila melanogaster with 46 samples.

Results

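Old flies of the long-lived SR line were compared with old flies of its control line C, both kept on optimal food. The comparison rests on 8 arrays chosen by their titles, 4 of SR and 4 of C flies, out of 46 arrays in 12 groups. In the study virgin females of each line lived on 1 of 3 foods, named malnutrition, optimal food and overfeeding and made at 0.5, 2 and 5 times a base recipe, and were frozen at middle age, with 90% of the cohort alive, or at old age, with 10% alive. SR flies descend from a line selected for resistance to starvation, and C flies from a line kept beside it without that selection. Every array read the RNA of a pool of 5 whole flies. Age classes were set by survival, and the paper reports a longer median and maximum lifespan for the SR line. Old SR flies are therefore likely to have been older in days than old C flies. No day is given in the sources used here, so line and days of age cannot be told apart. A single line of each kind was sampled, and p-values therefore rest on the spread among pools of flies, not among selection lines. A difference between the lines therefore cannot be told apart from one that drift fixed in either line.

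Starvation resistance in Drosophila is known to depend on fat and glycogen held in the fat body, the fly's counterpart of liver and adipose tissue, and on the signals that release them. Ageing flies are known to express more antimicrobial peptides, which the fat body secretes under control of the Toll and Imd pathways, and to lose egg production and muscle and eye function. Expression read from whole flies mixes all tissues, so fewer cells of a type and less RNA per cell cannot be told apart.

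The deposited values are log2 expression levels, so a difference of 1 is a doubling. The table holds 18952 probe sets, of which 13646 carry the symbol of 1 gene, and 11981 genes have at least 1 of these. Array medians ran from 5.14 to 5.27 over the 8 arrays, and any value under 5 is called dim here. Arrays of a group correlated over the probe sets, which do not count as replicates, at 0.990 to 0.997 among SR arrays and 0.984 to 0.993 among C arrays. Ovary genes were expressed in all 8 arrays, with the mean of 62 germline genes at 9.21 to 9.51 in SR and 9.00 to 9.42 in C flies. Genes of testis averaged 3.92 to 3.94 in SR and 3.92 to 3.97 in C flies, and those of the male accessory gland 3.62 to 3.68 and 3.70 to 3.92. C replicates 3 and 4 stood apart in tissue markers. C replicate 3 had the lowest germline mean (9.00) and the highest means of muscle (10.45, against 9.80 to 10.10 in the other C arrays), antimicrobial peptide (8.86) and eye genes (7.68). C replicate 4 had the highest mean of eggshell genes (10.86, against 4.98 to 5.70 in the other C arrays). The main counts, and those of gene lists that moved with these 2 arrays, are also given without them.

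Of the 18952 probe sets 824, or 4.35%, differed between old SR and old C flies on optimal food at a false discovery rate of 5%, 451 of them higher (2.38%) and 373 lower (1.97%) in SR flies. They stand for 687 named genes, and 118 of them have no single gene symbol. The differences were mostly small, with a median size of 0.63, but the large ones lay mainly on the lower side: 74 were higher and 131 lower by more than 1, and 15 higher and 38 lower by more than 2. With the arrays centred on the mean of 50 neuron genes instead, 222 were higher and 330 lower. Both groups of arrays lay wholly apart for 671 of the called probe sets and overlapped for 153. Among all probe sets 9.17% did not overlap. Without 1 array the number of calls was 537 (SR replicate 1), 801 (SR 2), 648 (SR 3), 538 (SR 4), 815 (C 1), 957 (C 2), 644 (C 3) or 583 (C 4). Without C replicates 3 and 4 together, a setting added after the data were seen, it was 429, and 344 of the 824 were among them. Values written as a ± b below are the difference SR minus C with its standard error, and adjusted p-values are from limma.

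The line labels were checked in the other 38 arrays. There 81 probe sets separated every SR array from every C array, 41 with SR higher and 40 with SR lower. In the 8 arrays of old flies on optimal food, which had no part in this choice, all 81 had the same sign and 76 lay wholly apart in the same direction. Arrays wholly apart always give an exact two-sided permutation p of 0.0286, the smallest that 4 arrays against 4 allow. This p therefore adds nothing to the count of 76. By the limma fit 76 of the 81 were called in the same direction, 74 of them among those wholly apart. That fit takes its spread from all 46 arrays, among them the 38 that chose the markers, so its calls are not a separate check. The 81 include CG31157, CR44101, nxf2 and CG7966 on the higher side, and CG5568, Kpc2, CG6984 and Mctp on the lower side. No array went against its label.

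CG31157 was the gene with the largest rise in SR flies. It stood at log2 levels of 10.56, 10.17, 10.25 and 10.43 in SR flies, against 5.17, 4.62, 5.13 and 4.49 in C flies, and thus near the dim range in C. The difference was 5.50 ± 0.24 (45.4-fold, adjusted p = 2.51e-19). It was of the same size in the other line comparisons, 5.83 in middle-aged flies on optimal food, 5.53 in old flies on overfeeding and 5.59 in old flies on malnutrition.

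mey, which encodes a zona pellucida domain protein, had levels of 7.80, 7.50, 7.12 and 7.94 in SR flies, against 3.73, 3.65, 3.55 and 3.87 in C flies. It was dim in all C arrays and clearly expressed in all SR arrays (3.89 ± 0.36, 14.8-fold, adjusted p = 7.44e-10). CR44101 reached 9.76, 9.12, 9.75 and 9.60 in SR flies, against 6.01, 6.58, 6.16 and 5.47 in C flies (3.50 ± 0.39, adjusted p = 3.2e-08). CG42541 stood at 7.80, 8.09, 7.78 and 7.67 in SR flies, against 4.81, 5.14, 5.14 and 4.61 in C flies (2.91 ± 0.24, adjusted p = 5.48e-11). It has 2 further, dim probe sets, which differed by -0.04 and -0.02 and did not pass.

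Several of the other leading genes encode regulators or receptors. TkR99D, a receptor for tachykinin neuropeptides, was at 6.91, 7.13, 6.41 and 7.63 in SR flies and at 4.46, 4.56, 4.63 and 4.56 in C flies, where all arrays were dim (2.47 ± 0.45, adjusted p = 0.000353). Pdp1 encodes a transcription factor of the circadian clock that activates Clk. Its levels were 8.89, 9.52, 8.90 and 9.17 in SR flies and 6.56, 7.44, 6.15 and 7.83 in C flies (2.12 ± 0.34, 4.36-fold, adjusted p = 4.27e-05). It was the only member called among the 13 clock genes measured, whose median difference was 0.15. The levels of danr, a transcription factor of antennal development, were 5.79, 5.50, 6.02 and 6.27 in SR flies, against 4.11, 3.37, 4.02 and 3.96 in C flies (2.03 ± 0.34, adjusted p = 0.00012). Prosbeta2R2, a relative of a proteasome beta subunit, was at 7.25, 7.77, 7.05 and 7.41 in SR flies and at 4.65, 3.61, 6.01 and 4.21 in C flies, so that C replicate 3 lay nearest to SR (2.75 ± 0.43, adjusted p = 3.81e-05). CG42335, with 2 probe sets that both rose, had levels of 6.99, 7.96, 7.49 and 7.41 in SR flies, against 4.38, 4.76, 5.38 and 4.96 in C flies (2.59 ± 0.25, adjusted p = 1.37e-09). CG32259 (2.63 ± 0.27), CG7966 (2.35 ± 0.15) and CR11023 (2.26 ± 0.16) complete the 12 highest named genes, chosen among called genes whose arrays did not overlap. None of the calls of these 12 was lost when any 1 array was left out.

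**Figure D1:**
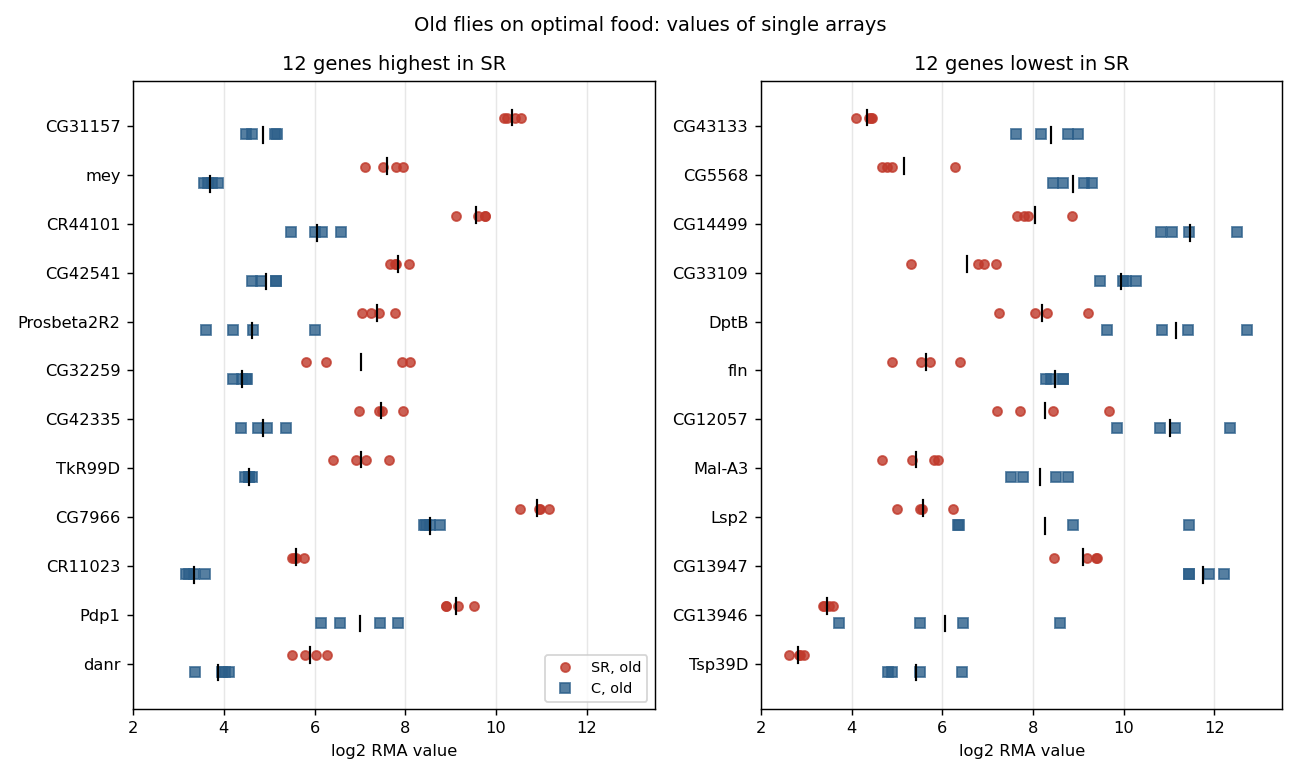
Log2 expression level of the leading genes in each of the 4 old SR and 4 old C arrays on optimal food, 1 point per array with lines at the group means, for the 12 genes highest and the 12 lowest in SR flies. The genes were chosen among called ones whose groups of arrays did not overlap. They run from CG31157 with SR arrays at 10.17 to 10.56 above C arrays at 4.49 to 5.17, to CG43133 with SR arrays at 4.10 to 4.44 below C arrays at 7.63 to 8.99.

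On the lower side CG43133 led the named genes, with levels of 4.10, 4.44, 4.42 and 4.39 in SR flies, against 8.78, 7.63, 8.99 and 8.18 in C flies (-4.06 ± 0.38, 16.6-fold lower in SR, adjusted p = 9.75e-10). It was thus dim in all SR arrays. CG5568 stood at 4.68, 4.77, 6.29 and 4.90 in SR flies, against 9.13, 9.31, 8.43 and 8.67 in C flies (-3.73 ± 0.50, adjusted p = 2.18e-06). SR replicate 3 was the highest SR array and C replicate 3 the lowest C array, yet they were still apart by more than 2 units. CG14499 had levels of 7.88, 7.65, 8.86 and 7.80 in SR flies and of 10.83, 11.06, 12.50 and 11.45 in C flies (-3.41 ± 0.55, adjusted p = 5.58e-05). Its neighbour on the chromosome, CG14500, was at 6.71, 6.53, 6.81 and 6.58 in SR flies, against 8.0, 8.91, 8.85 and 10.09 in C flies (-2.30 ± 0.38, adjusted p = 8.34e-05).

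CG13947 reached 9.38, 9.20, 8.46 and 9.40 in SR flies, against 11.44, 12.22, 11.88 and 11.43 in C flies (-2.63 ± 0.38, adjusted p = 9.18e-06). The neighbouring CG13946 was dim in all SR arrays (3.58, 3.40, 3.50 and 3.36) and spread from 3.72 to 8.60 in C flies (-2.61 ± 0.43, adjusted p = 7.81e-05). Tsp39D, a tetraspanin of the cell membrane, was at 2.95, 2.61, 2.83 and 2.87 in SR flies and at 4.90, 4.81, 6.43 and 5.50 in C flies (-2.59 ± 0.26, adjusted p = 3.86e-09). CG33109 (-3.39 ± 0.64, adjusted p = 0.00053) and CG12057 (-2.77 ± 0.59, adjusted p = 0.00249) were also lower. All of the 12 lowest were chosen among called genes without overlap. The call of CG12057 was lost without C replicates 3 and 4 together. Of the 12 lowest named genes only Lsp2 lost its call when 1 array was left out.

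Several antimicrobial peptide genes were lower in old SR than in old C flies, while their list as a whole had a median near 0. DptB encodes a diptericin, which acts on Gram-negative bacteria. Its levels were 7.25, 8.30, 9.21 and 8.04 in SR flies, against 9.63, 10.85, 12.72 and 11.42 in C flies. The SR arrays all lay below the C arrays (-2.96 ± 0.48, 7.76-fold lower in SR, adjusted p = 7.23e-05). AttD, an attacin, was at 4.27, 3.89, 4.51 and 6.32 in SR flies and at 5.08, 6.32, 9.80 and 7.41 in C flies, with an overlap between the groups (-2.40 ± 0.51, adjusted p = 0.00241). Mtk, the antifungal metchnikowin, had levels of 9.16, 10.52, 11.76 and 9.81 in SR flies, against 12.34, 12.38, 13.30 and 12.71 in C flies (-2.37 ± 0.66, adjusted p = 0.029). CecB, a cecropin, and edin, a peptide induced by infection, both named after their values were seen, were lower by smaller amounts (-0.66 ± 0.13, adjusted p = 0.00118, and -0.85 ± 0.21, adjusted p = 0.0102). Drsl4, a relative of the antifungal drosomycin, differed the other way. It was at 10.23, 9.69, 9.15 and 9.36 in SR flies and at 8.37, 8.04, 7.90 and 8.72 in C flies (1.35 ± 0.34, adjusted p = 0.0139).

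Of the 14 antimicrobial peptide genes measured 1 was called higher and 5 lower in SR flies, and the median of the 14 was -0.07. For comparison, here and for the lists of old flies below, 5.38% of all 11981 genes were called, 2.99% higher and 2.39% lower. The median over all genes was 0.02. Def, a defensin, differed by -0.07 ± 0.36 (adjusted p = 0.946) and Drsl2 by 0.92 ± 0.45 (adjusted p = 0.279). AttA, which was read by a probe set named only in the study's tables, differed by -1.84 ± 0.67 (adjusted p = 0.118). Without C replicate 3 there were 0 higher and 3 lower, without SR replicate 1 0 and 3, and without C replicates 3 and 4 together 1 and 1. Mtk lost its call without SR replicate 1 or 4 or C replicate 3 or 4 (adjusted p 0.0656 to 0.138), edin and Drsl4 without SR replicate 1 or C replicate 3 (adjusted p up to 0.101 and 0.0864), and AttD and CecB without C replicates 3 and 4 together.

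Of 39 genes of immune recognition and signalling 2 were called higher and 2 lower. pirk, which restrains the Imd pathway, was at 7.81, 7.84, 7.33 and 7.47 in SR flies, against 7.29, 8.82, 9.66 and 8.73 in C flies, with C replicate 1 below every SR array (-1.01 ± 0.28, adjusted p = 0.0311). PGRP-LB, an amidase that degrades peptidoglycan, was lower by 0.70 (adjusted p = 0.032), and spz, the ligand of the Toll receptor, was higher by 0.52 ± 0.14 (adjusted p = 0.0198). All 3 lost their calls without SR replicate 4 or C replicate 3. pirk also did without SR replicate 3 or C replicate 2 or 4 (adjusted p up to 0.212), PGRP-LB without SR replicate 1 or 3 or C replicate 4 (up to 0.243) and spz without SR replicate 1 (up to 0.133). The amidase PGRP-SB1 (-0.81 ± 0.37, adjusted p = 0.245) and the receptor PGRP-SA (-0.42 ± 0.28, adjusted p = 0.45) did not pass. Markers of haemocytes, the blood cells of the fly, averaged 6.36 to 6.69 in SR and 6.49 to 6.76 in C flies.

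**Figure D2:**
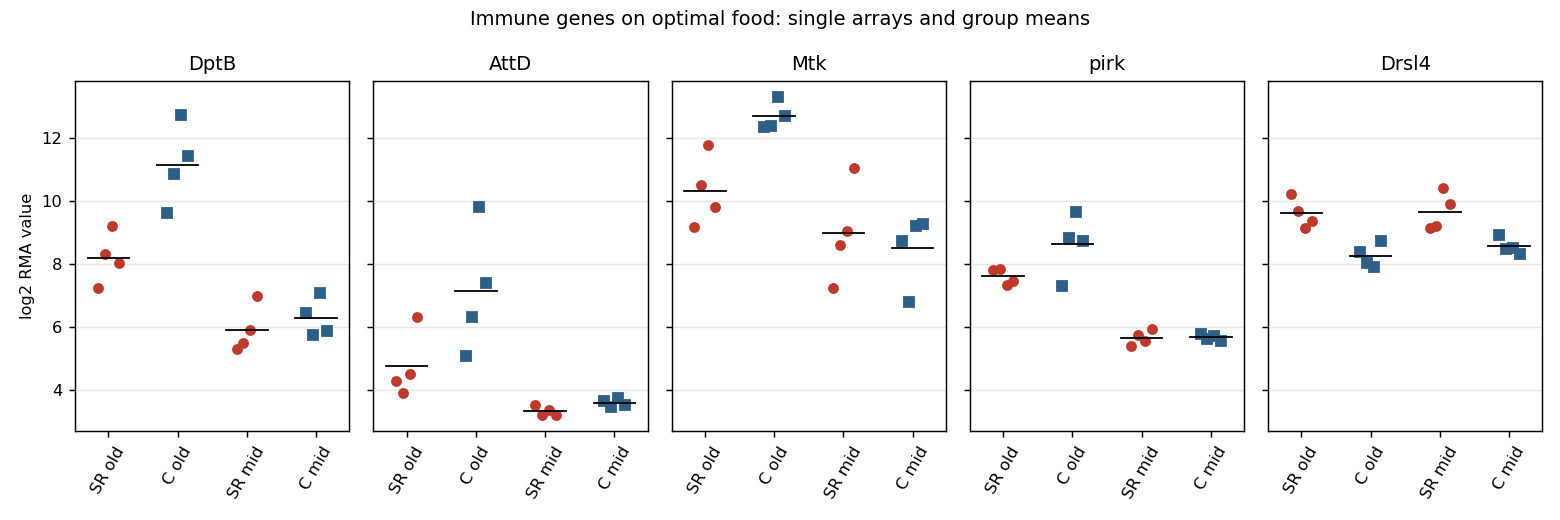
Log2 expression level of 5 immune genes on optimal food, 1 point per array with lines at the group means, in old SR, old C, middle-aged SR and middle-aged C flies. Old C arrays reach 12.72 for DptB and 9.80 for AttD, the highest values shown for these genes, both in C replicate 3. Drsl4 is higher in SR than in C flies at both ages.

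Of the muscle genes 4, among them components of the flight muscle, were lower in old SR flies. fln encodes flightin, a protein of the thick filaments that occurs in the indirect flight muscle. It stood at 6.39, 5.72, 4.88 and 5.53 in SR flies, against 8.39, 8.28, 8.65 and 8.65 in C flies, and the difference of -2.86 ± 0.29 (7.27-fold lower in SR, adjusted p = 5.09e-09) exceeded the spread of either group. Act88F, the actin of the flight muscle, was at 8.42, 8.10, 8.28 and 8.27 in SR flies, against 10.51, 10.17, 11.58 and 11.00 in C flies (-2.55 ± 0.35, adjusted p = 5.18e-06). TpnC4, a troponin C of the flight muscle, was at 8.36, 8.0, 7.56 and 7.88 in SR flies and at 9.25, 8.93, 9.46 and 9.12 in C flies (-1.24 ± 0.22, adjusted p = 0.00033). TpnC41C, another troponin C, was lower by 1.33 (SE 0.23, adjusted p = 0.000208). SR and C arrays did not overlap for any of the 4.

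These 4 were the only ones called among the 29 muscle genes when each was read by its brightest probe set, and the median of the 29 was -0.21. With the arrays centred on their medians 7 were lower, and with the neuron genes as the base 8, again with none higher. Strn-Mlck, a giant protein kinase related to titin, has 3 probe sets. The brightest differed by -0.60 ± 0.19 (adjusted p = 0.0553), and the dimmer 1630501_a_at, chosen after its values were seen, by -1.95 ± 0.28 (adjusted p = 9.46e-06), with levels of 5.82, 4.76, 4.63 and 5.12 in SR flies against 7.14, 6.88, 7.10 and 7.03 in C flies. The third differed by -0.16 (adjusted p = 0.359). Fhos, a formin needed to build flight muscle sarcomeres and also chosen after its values were seen, was lower by 1.01 (SE 0.12, adjusted p = 2.82e-07) in its brightest probe set. Its others differed by -0.41 (adjusted p = 0.274, mean 6.33) and, in a dim one, by -0.30 (adjusted p = 0.0342). Dimmer probe sets of Msp300, which links nuclei to the muscle cytoskeleton, and of Gpdh1, a glycerol-3-phosphate dehydrogenase, were called lower too (-1.13 for Msp300, -1.12 and -1.01 for Gpdh1), and were likewise chosen after their values were seen. The mean of the 29 genes was 9.61, 9.80, 9.42 and 9.63 in SR flies and 9.80, 9.81, 10.45 and 10.10 in C flies, and so was highest in C replicate 3. Leaving out any 1 array kept at least 4 genes lower and none higher, but the median moved to -0.03 without C replicate 3. The part of that array's germline, muscle and immune values in these results beyond leaving it out was not tested.

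Food changed this difference for some muscle genes. Of the 29, 3 had a lower line difference on optimal food than on malnutrition and 26 did not pass, and against overfeeding all 29 did not pass. In old flies on malnutrition fln was not lower in SR flies (0.88, adjusted p = 0.129). The Strn-Mlck probe set 1630501_a_at was higher in SR flies there (2.04, adjusted p = 1.67e-05). TpnC4 was higher too (1.13, adjusted p = 0.00303), while Act88F did not pass (0.16, adjusted p = 0.93). There fln averaged 8.05 ± 0.54 in SR (SD, n = 4) and 7.17 ± 0.46 in C flies (SD, n = 3), and 1630501_a_at 9.23 ± 0.39 in SR and 7.19 ± 0.16 in C flies. On optimal food fln and 1630501_a_at averaged 5.63 ± 0.62 and 5.08 ± 0.53 in SR and 8.50 ± 0.19 and 7.04 ± 0.11 in C flies (SD, n = 4 each). The line difference on optimal food was below that on malnutrition, with a difference of differences of -3.74 ± 0.43 (adjusted p = 1.08e-06) for fln and of -3.996 ± 0.41 (adjusted p = 1.71e-07) for the Strn-Mlck probe set. It was also below it for Act88F (-2.71, adjusted p = 0.00821), TpnC4 (-2.37, adjusted p = 9.66e-05) and Fhos (-0.89, adjusted p = 0.0127). TpnC41C did not pass this test (-0.45 ± 0.34, adjusted p = 0.98). Against overfeeding none of these genes was among the 4 calls: the difference of differences was -0.82 ± 0.43 for fln (adjusted p = 0.617) and -1.48 ± 0.52 for Act88F (adjusted p = 0.52), with fln itself lower in SR flies on overfeeding by 2.04 (adjusted p = 3.45e-05). These tests reuse the 8 arrays on optimal food.

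**Figure D3:**
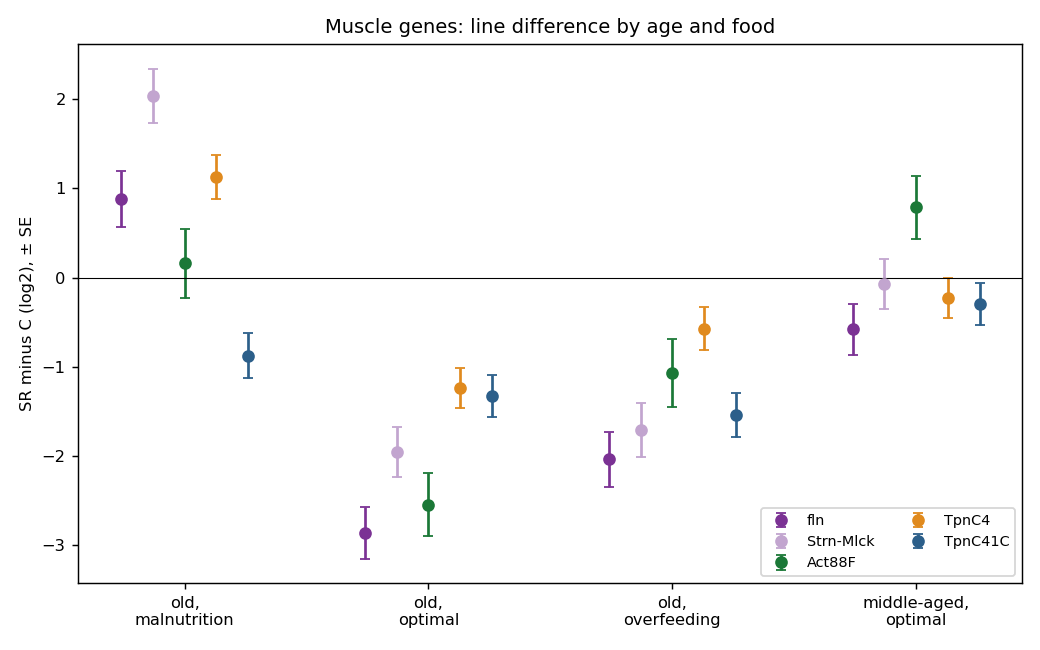
Difference SR minus C in log2 expression of 5 muscle probe sets, with bars of 1 standard error, in old flies on malnutrition, optimal food and overfeeding and in middle-aged flies on optimal food. Strn-Mlck stands for its probe set 1630501_a_at. For fln the difference was 0.88 in old flies on malnutrition, -2.86 on optimal food and -2.04 on overfeeding, and -0.58 in middle-aged flies on optimal food.

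Of the photoreceptor genes 3 were lower in old SR flies. Pdh, a dehydrogenase of visual pigment recycling, stood at 9.13, 9.82, 9.05 and 8.97 in SR flies, against 10.07, 10.34, 10.31 and 10.80 in C flies (-1.14 ± 0.29, adjusted p = 0.0145). Arr1, an arrestin that turns off rhodopsin, was at 9.23, 9.61, 9.13 and 9.10 in SR flies and at 9.94, 10.00, 10.33 and 10.23 in C flies (-0.86 ± 0.19, adjusted p = 0.0034). Of the 22 eye genes measured 3 were called lower and none higher, against 2.39% and 2.99% of all genes. Their median of -0.33 was the lowest of the 45 lists. The third was chp, an adhesion protein of photoreceptors (-0.70 ± 0.21, adjusted p = 0.0477), which lost its call without 6 of the 8 arrays (SR 1, 3 and 4, C 1, 3 and 4, adjusted p up to 0.233). Pdh was not called without SR replicate 4 or C replicate 4 (adjusted p up to 0.0726), and without C replicates 3 and 4 together none of the 22 was called and their median was -0.13. Neuron genes averaged 5.89 to 6.21 in SR and 5.87 to 6.25 in C flies.

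Among genes of detoxification single members differed strongly, while the medians of their families lay near that of all genes. Cyp6a14, a cytochrome P450, was at 5.23, 5.45, 5.43 and 4.95 in SR flies, against 6.77, 7.76, 7.69 and 7.61 in C flies (-2.20 ± 0.19, 4.58-fold lower in SR, adjusted p = 8.82e-11). It was lower in SR flies in all 4 line comparisons. The neighbouring genes Cyp4p3 (-1.64 ± 0.22, adjusted p = 2.98e-06) and Cyp4p1 (-1.25 ± 0.33, adjusted p = 0.0197) were both lower, and so was Cyp12c1, a P450 of mitochondria (-1.003 ± 0.27, adjusted p = 0.0199). Of 84 P450 genes 1 was called higher and 7 lower, with a median of -0.05, against 2.99% higher and 2.39% lower among all genes. Leaving out SR replicate 1 or 3 gave 0 higher and 4 lower, leaving out C replicate 3 gave 3 and 4, and the germline mean as a covariate gave 11 and 6. Cyp4p1 was not called without SR replicate 1 or 2 or C replicate 3 (adjusted p up to 0.078), and Cyp12c1 without SR replicate 4 or C replicate 3 (adjusted p up to 0.113).

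Glutathione S-transferases, which join glutathione to toxic compounds, went both ways, with 4 of 34 higher and 2 lower (median 0.05). Among all genes 2.99% were higher and 2.39% lower. GstE5 was at 6.82, 7.25, 6.83 and 6.48 in SR flies, against 5.51, 5.06, 5.57 and 5.23 in C flies (1.50 ± 0.19, adjusted p = 1.02e-06), and its neighbour GstE6 was higher by 0.49 ± 0.09 (adjusted p = 0.000367). GstD5 was dim in SR flies and lower by 1.50 (SE 0.27, adjusted p = 0.000279). Ugt35A1, a glycosyltransferase, was lower by 1.24 (SE 0.29, adjusted p = 0.00703, and 0.0597 without C replicate 3). The peroxiredoxin Prx6c, which breaks down peroxides, was at 6.19, 6.47, 7.30 and 7.41 in SR flies and at 8.40, 8.87, 9.24 and 9.26 in C flies (-2.10 ± 0.42, adjusted p = 0.00125), while Trxr1, the thioredoxin reductase, was higher by 0.37 ± 0.08 (adjusted p = 0.00583).

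Of 28 gut serine proteases 2 were called lower and none higher, of 39 lipases 2 lower and none higher, and of 17 fat body genes 3 lower and 1 higher, against 2.39% of all genes lower and 2.99% higher. The higher one was Glyp, the glycogen phosphorylase (0.39 ± 0.10, adjusted p = 0.0214), which lost its call without SR replicate 1 or 4 or C replicate 1 or 3 (adjusted p up to 0.0915). The proteases had none called without SR replicate 1, 3 or 4 or C replicate 3 or 4, and a median of 0.02 without C replicates 3 and 4 together, against -0.23 with all arrays. Mal-A3, a maltase that splits sugars in the gut, was at 5.90, 4.68, 5.32 and 5.82 in SR flies, against 7.52, 8.78, 7.78 and 8.50 in C flies (-2.72 ± 0.39, 6.58-fold lower in SR, adjusted p = 1.05e-05). Its neighbour Mal-A4 was lower by 1.48 (SE 0.35, adjusted p = 0.00774, and 0.0545 without C replicate 2), with overlapping arrays, and the amylase relative Amyrel by 0.93 (SE 0.20, adjusted p = 0.00282). Of 17 genes listed as maltases and amylases 1 was higher and 3 lower (median -0.19). That list also holds LManI to LManV, which are mannosidases. Sardh, the mitochondrial sarcosine dehydrogenase, stood at 5.72, 5.20, 5.18 and 4.90 in SR flies, against 7.71, 6.90, 7.04 and 6.17 in C flies (-1.71 ± 0.30, adjusted p = 0.00022). Pepck2, a phosphoenolpyruvate carboxykinase, was lower by 1.14 (SE 0.26, adjusted p = 0.00417).

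Lsp2, a storage protein of the haemolymph, was at 5.56, 5.01, 5.50 and 6.24 in SR flies and at 6.36, 8.88, 6.35 and 11.43 in C flies. C replicates 2 and 4 were far above the other C arrays, which lay close to SR (-2.68 ± 0.71, adjusted p = 0.0197, and 0.18 without C replicate 4). Its call was also lost without SR replicate 1 or 2 or C replicate 2. Npc2e, a sterol-binding protein, was at 7.11, 7.74, 7.69 and 6.99 in SR flies and at 8.28, 8.69, 9.37 and 11.15 in C flies (-1.99 ± 0.44, adjusted p = 0.00415, and 0.0528 without C replicate 4). Of 37 genes that make and store fat 1 was called. This was Lpin, the phosphatidate phosphatase of fat synthesis, lower by 0.75 (SE 0.20, adjusted p = 0.0218), and not called without SR replicate 1 or 3 or C replicate 3 or 4 (adjusted p up to 0.0958).

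A few genes of energy metabolism and of nutrient signalling were higher in SR flies. Idh3b, a subunit of the NAD-dependent isocitrate dehydrogenase, was at 10.53, 10.51, 10.39 and 10.50 in SR flies, against 9.81, 10.00, 10.12 and 9.90 in C flies (0.52 ± 0.09, adjusted p = 0.00012). ScsbetaG, of succinyl-CoA synthetase, was higher by 0.35 ± 0.07 (adjusted p = 0.000743), while its other probe sets did not pass (0.74, adjusted p = 0.149, and 0.05, adjusted p = 0.865), and Idh3g, another subunit of the isocitrate dehydrogenase, by 0.50 ± 0.14 (adjusted p = 0.0379, up to 0.147 without SR replicate 1 or 4 or C replicate 1 or 4). Of the 11 genes of the citrate cycle 3 were thus called higher and none lower, against 2.99% higher and 2.39% lower among all genes. None of 56 listed genes of oxidative phosphorylation was called (median -0.08). That list leaves out COX7AL2 (-1.42, adjusted p = 2.69e-05) and UQCR-6.4, which were called lower and are named after their values were seen. Sdr, a secreted protein that binds insulin-like peptides, was higher by 0.62 ± 0.11 (adjusted p = 0.000169). foxo, the transcription factor that insulin signalling holds back, was at 8.47, 8.50, 8.36 and 8.64 in SR flies, against 8.31, 8.04, 7.88 and 7.90 in C flies (0.46 ± 0.14, adjusted p = 0.0406). Its call was lost without 6 of the 8 arrays (SR 1, 2 and 4, C 2, 3 and 4, adjusted p up to 0.151). Of 17 genes that mark the Malpighian tubules, the kidneys of the fly, and the hindgut, the transporters NaPi-T (1.12 ± 0.18, adjusted p = 8.04e-05) and Oatp58Db (0.89 ± 0.17, adjusted p = 0.000589) were higher.

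Cuticle genes gave 2 higher and 4 lower of 105, against 2.99% higher and 2.39% lower among all genes. Cpr100A was at 7.43, 7.06, 6.83 and 6.31 in SR flies, against 5.02, 5.41, 5.30 and 5.02 in C flies (1.72 ± 0.34, adjusted p = 0.00099), and Cpr72Ec, with levels of 5.01, 5.26, 5.19 and 5.20 in SR flies and of 7.22, 6.66, 6.63 and 7.26 in C flies, was lower (-1.78 ± 0.28, adjusted p = 4.84e-05). Spn31A, a serpin, was higher by 1.30 ± 0.19 (adjusted p = 1.48e-05). Send1, a protease of the spermathecae, where sperm is stored, was lower by 1.25 (SE 0.36, adjusted p = 0.0379) with overlapping arrays, and not called without SR replicate 3 or 4 or C replicate 3 or 4 (adjusted p up to 0.171).

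Ovary genes showed small differences. Of 62 germline genes 2 were called higher and none lower (median 0.17), and of these stau, an RNA-binding protein that places mRNAs in the egg, rose by 0.44 ± 0.11 (adjusted p = 0.0164) and the other is spz. The call of stau was lost without SR replicate 1 or 2 or C replicate 4 (adjusted p up to 0.145). The germline median was 0.07 with 1 gene called without C replicate 3, and without C replicates 3 and 4 together it turned to -0.03 with 0 called. In the piRNA pathway, which silences transposons in the germline, 3 of 30 were higher and none lower (median 0.20). nxf2, an export factor relative that acts in piRNA-guided silencing, stood at 7.58, 7.56, 8.11 and 8.10 in SR flies, against 5.66, 6.26, 6.16 and 6.23 in C flies (1.76 ± 0.26, adjusted p = 1.27e-05). It was higher in SR flies in all 4 line comparisons. The Tudor-domain proteins tapas (0.65 ± 0.16, adjusted p = 0.00986, and 0.0719 without C replicate 3) and BoYb (0.63 ± 0.17, adjusted p = 0.0269) were the others. A second, well expressed probe set of tapas (mean 8.01) differed by 0.00036 (adjusted p = 0.999), so that the probe sets of this gene disagree. Without C replicate 3 a single gene of the 30 was called (median 0.13), and likewise without C replicates 3 and 4 together (median 0.02). BoYb was not called without SR replicate 1 or 4 or C replicate 1, 3 or 4 (adjusted p up to 0.125).

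No gene of 42 for DNA replication (median 0.13) and none of 60 for mitosis (median 0.15) was called in old flies, and 0 of the 24 eggshell genes. Without C replicate 3 the medians of replication and mitosis genes were 0.03 and 0.02, and without C replicates 3 and 4 together they turned to -0.08 and -0.06. The mean of the eggshell genes was 7.51, 5.00, 7.14 and 8.60 in SR flies and 4.98, 5.70, 5.37 and 10.86 in C flies, so that 1 C array exceeded every other. Their median difference was 0.54, but 1.83 with 5 genes higher without C replicate 4, and -0.16 with none without SR replicate 4. Over all 45 gene lists, which hold 1426 genes, 89 genes were called, against 5.38% of all 11981 genes, and 12 lists had no called gene. Without C replicates 3 and 4 together 37 genes were called. By list these were 0 of the 39 genes of immune recognition and signalling, 3 higher and 2 lower P450 genes, and 2 higher and 0 lower glutathione S-transferases. The list of maltases and amylases had 0 higher and 2 lower, cuticle genes 2 higher and 2 lower, and 4 muscle genes were lower.

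**Figure D4:**
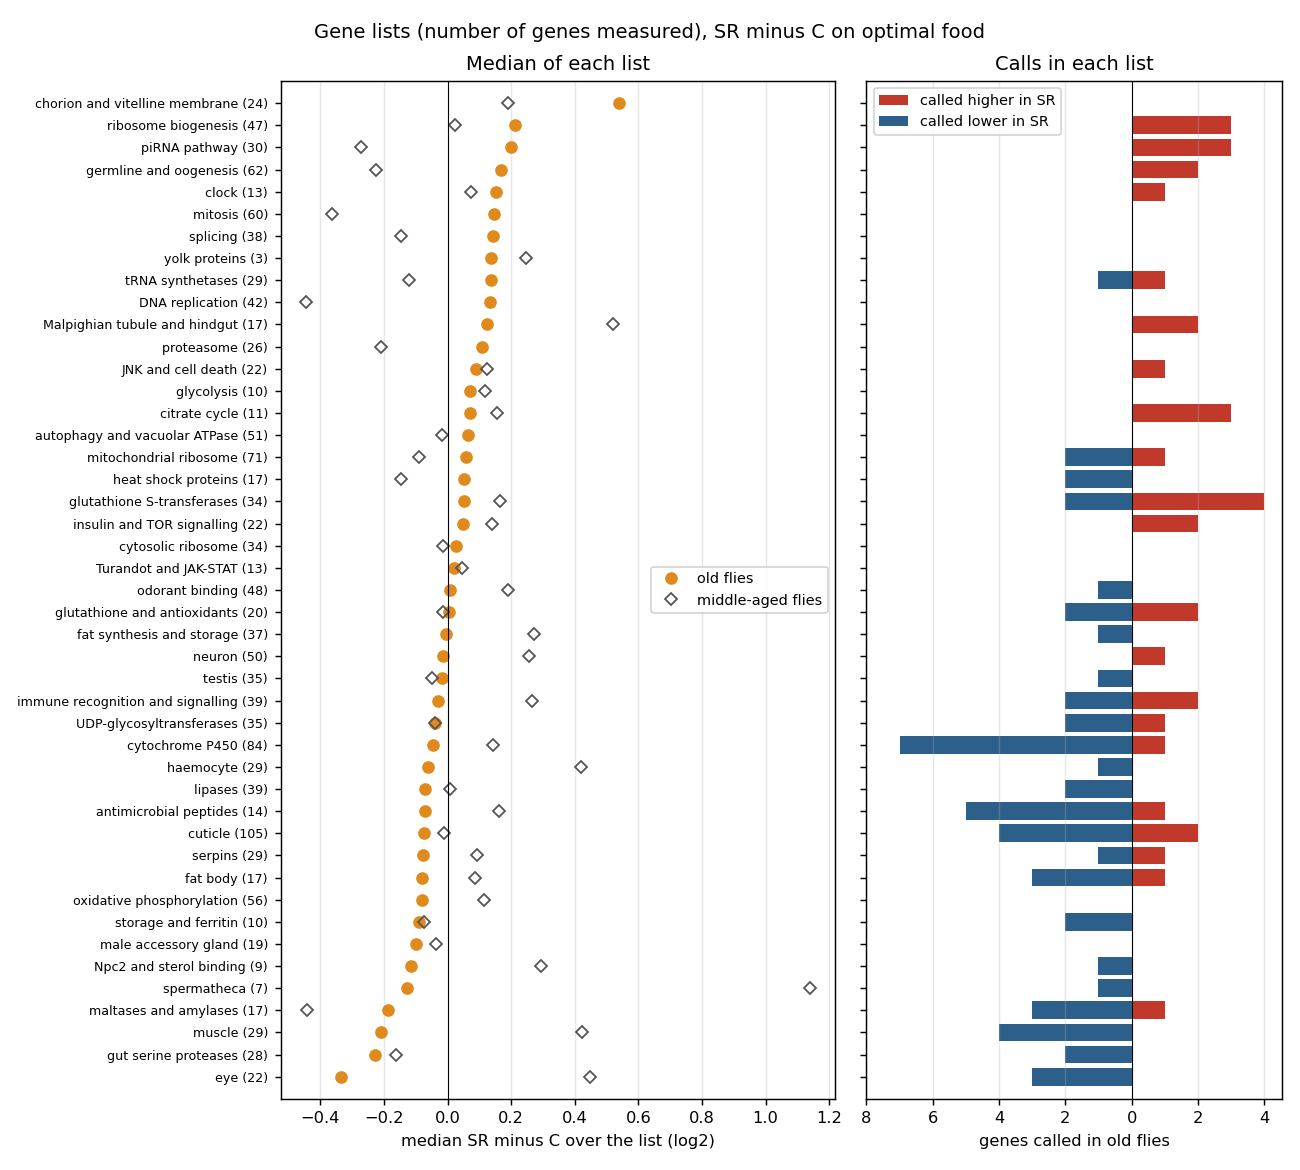
Median difference SR minus C in log2 expression over the genes of each list, in old and in middle-aged flies on optimal food, with the number of genes called higher and lower in old flies. The muscle list lies at -0.21 in old and 0.42 in middle-aged flies and the eye list at -0.33 and 0.45, on opposite sides of 0. With the neuron genes as the base the muscle list at middle age has 8 genes higher and 7 lower, while 8486 of all 18952 probe sets are called. The neuron list itself has a median of 0.26 at middle age.

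Whether the line difference belonged to old age was asked by setting it against the same difference in middle-aged flies on optimal food, which uses 8 other arrays. There 3165 probe sets (16.7%) were called, 1608 higher (8.48%) and 1557 lower (8.22%) in SR flies. Counted by gene this was 20.8%, 10.5% higher and 10.3% lower. Of the 824 probe sets of old flies 335 were also called at middle age, which is 40.7% of the 824 and 10.6% of the 3165, and 329 of these had the same direction. Of the 824, 670 (81.3%) had the same sign at middle age. Over the 824 probe sets, which do not count as replicates, the line differences of both ages correlated at r = 0.77, and over all 18952 at r = 0.24. Many leading genes differed in the same direction at both ages, and for CG31157, CR44101, CG42541, CG7966, CG5568, Mal-A3 and GstE5 the difference between the ages did not pass.

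**Figure D5:**
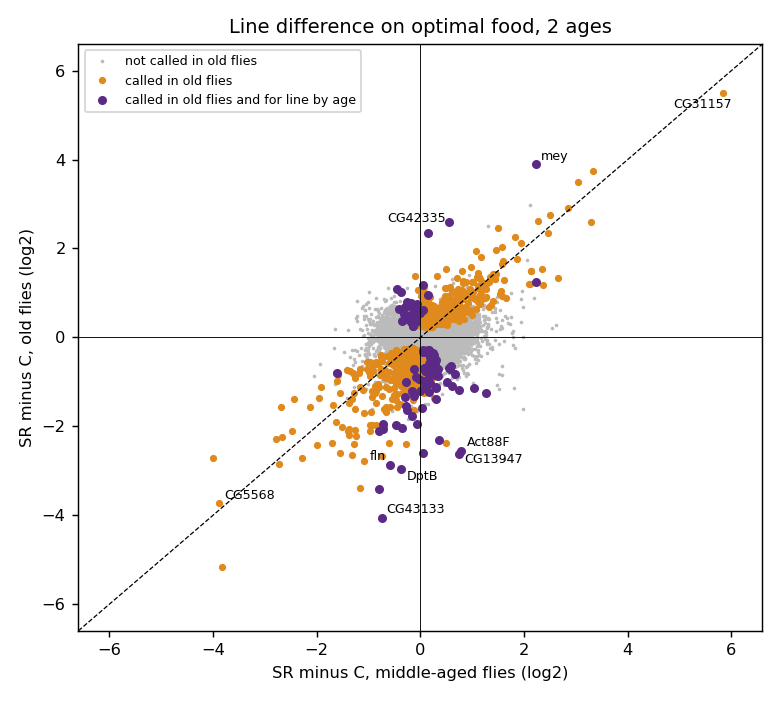
Difference SR minus C in log2 expression of old flies on optimal food (vertical) against middle-aged flies on optimal food (horizontal), 1 point per probe set, with colours for calls and a dashed line of equality. CG31157 lies at 5.50 and 5.83, near the diagonal, while CG43133 at -4.06 and -0.75 and Act88F at -2.55 and 0.79 lie far below it.

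The line difference itself changed with age, by the interaction of line and age, for 996 probe sets (5.26%), 602 (3.18%) with a higher and 394 (2.08%) with a lower difference in old flies. This test shares the 8 old arrays with the comparison above. Of the 824 called in old flies 121 also changed with age, 44 of them higher and 77 lower in old SR flies. Of the 996, 109 were called between the lines in old flies alone, 687 at middle age alone, 12 at both and 188 at neither. With the replicate number as a block, which pairs the C arrays of both ages, the count was 888, and mey (adjusted p = 0.0531) and spz (adjusted p = 0.0553) lost their calls. The count of 996 also hung on single arrays, and was 53 to 2188 when any 1 of the 16 arrays was left out. It was 15 with the germline mean of each array as a covariate and 11 without C replicates 3 and 4 together.

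Some of the genes with the largest interactions differed between the lines mainly in old flies. In CG43133 the difference of -4.06 in old flies compared with -0.75 ± 0.38 at middle age (interaction -3.30, adjusted p = 0.00144). Its level was 4.48 ± 0.29 in middle-aged SR and 5.23 ± 0.23 in middle-aged C flies (SD, n = 4 each), so that the old C flies stood apart, at 8.39 ± 0.62 (SD, n = 4). CG13947 (interaction -3.38, adjusted p = 0.00101) and Act88F (interaction -3.34, adjusted p = 0.000689) were both higher in SR flies at middle age by values that did not pass (0.75 and 0.79). CG42335 differed by 0.56 (adjusted p = 0.119) at middle age and by 2.59 in old flies, and here the old SR flies stood apart, at 7.46 ± 0.40 against means of 4.87 in old C, 4.76 in middle-aged SR and 4.20 in middle-aged C flies (interaction 2.03, adjusted p = 0.00339, and 2.21 for its other probe set, adjusted p = 0.000689). CG43133, CG13947, Act88F and both probe sets of CG42335 were the only ones, of 39 named interaction results, called under every alternative that read them. The minimum mean of 5 left out both probe sets of CG42335, and 1 probe set per gene left out the dimmer one. CG14500 (-2.66, adjusted p = 0.0117) and CG13946 (-2.66, adjusted p = 0.0193) followed, with CG13946 not called without middle-aged C replicate 2 (adjusted p = 0.0519).

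fln (interaction -2.28, adjusted p = 0.00592) and Pdh (-2.18, adjusted p = 0.00809) were called without any 1 array but not without C replicates 3 and 4 together. Pdh was higher in SR flies at middle age (1.04, adjusted p = 0.0118) and lower at old age. The interactions of DptB (-2.58, adjusted p = 0.0339), CG14499 (-2.62, adjusted p = 0.0426) and mey (1.67, adjusted p = 0.048) were lost without 7, 11 and 12 of the 16 arrays, with adjusted p of up to 0.106, 0.126 and 0.117. By list, 8 of 29 muscle genes (median -0.86), 10 of 22 eye genes (median -0.58) and 3 of 7 spermatheca genes (median -0.97) had a lower line difference in old flies and none a higher one, while 7 of 42 DNA replication genes (median 0.62) and 8 of 60 mitosis genes (median 0.55) had a higher one and none a lower one. Other tissue markers had negative interaction medians too, with few calls: neuron genes -0.30 (1 higher and 2 lower of 50), haemocyte genes -0.38 (1 lower of 29), Malpighian tubule and hindgut genes -0.37 (0 of 17) and odorant binding genes -0.20 (1 lower of 48). With the neuron genes as the base the medians were -0.55 for muscle (7 lower), -0.27 for eye (7 lower), -0.66 for spermatheca (2 lower), 0.93 for DNA replication (0 called) and 0.86 for mitosis (3 higher). The block gave 7 lower for muscle, 10 for eye and 3 for spermatheca, and 5 higher for DNA replication and 4 for mitosis. The background over all genes was 6.55%, 3.93% higher and 2.62% lower. Without old C replicate 3 there were 4 muscle, 3 eye and 1 spermatheca genes and none of replication or mitosis, and without middle-aged SR replicate 4 there were 3, 3 and 1 and again none. With the germline mean as a covariate no eye, spermatheca, replication or mitosis gene was called for the interaction and 2 muscle genes were. At middle age the germline mean was 9.35 to 9.53 in SR and 9.54 to 9.65 in C flies, and it moves with these lists. Its part in them beyond that covariate was not tested.

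Line differences on the other foods were taken from 7 arrays each, which share none with optimal food. On overfeeding 483 probe sets (2.55%) were called in old flies, and 261 were shared with optimal food, 31.7% of the 824 and 54.0% of the 483, of which 260 had the same direction. On malnutrition 681 (3.59%) were called, and 270 were shared, 32.8% of the 824 and 39.6% of the 681, with 266 in the same direction. Of the 824, 747 (90.7%) had the same sign on overfeeding and 734 (89.1%) on malnutrition. In all 4 line comparisons, middle-aged and old on optimal food and old on both other foods, 133 probe sets were called, and 132 kept 1 direction, 83 higher and 49 lower in SR flies.

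Tested directly, the line difference of old flies on optimal food differed from that on overfeeding for 4 probe sets (0.0211%), or 2 with the replicate number as a block, and from that on malnutrition for 54 (0.285%), 25 with a higher and 29 with a lower difference on optimal food. The 4 were Cyp309a1 (-2.001), CG7997 (-1.02), bab1 (-1.01) and Ugt36A1 (-0.88), named because they are so few. Of these only bab1, a transcription factor, and CG7997 were called between the lines on optimal food itself, with bab1 at 4.60, 4.56, 4.40 and 4.24 in SR flies, dim in all, against 5.37, 5.15, 5.85 and 4.95 in C flies (-0.88 ± 0.13, adjusted p = 2.11e-05). Apart from the muscle genes, the 54 included Def, which differed by -0.07 on optimal food and was higher in SR flies on malnutrition by 2.7 (adjusted p of the change 0.00802), CG13947 (-2.76, adjusted p = 0.0115), mey (2.31, adjusted p = 0.0391) and CG42335 (2.13, adjusted p = 0.00164). For mey and CG42335 the rise in SR flies was thus larger on optimal food than on malnutrition, where it was 1.58 and 0.46.

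By position, the share of called genes was 6.21% on 2L (137 of 2205), 5.60% on 2R, 5.42% on 3L, 4.67% on 3R and 5.29% on X. It was 3.08% on chromosome 4 (2 of 65), and 5.38% over all genes. Of the 640 called genes with a known place 90 (14.1%) stood next to another called gene of the same direction, in 42 runs. Among all 11884 pairs of neighbouring genes 48 were called in the same direction. The share that chance alone would give was not worked out, so these counts do not show clustering. The pair CG31157 and CG7966 on 3R, both among the 12 highest, was 1 of the runs. The longest run was 4 genes on 3R, Vps13B, TkR99D, CG7896 and Acph-1, all higher in SR flies, with differences of 0.39, 2.47, 0.84 and 0.61. On 2L CG12506, CG13946 and CG13947 were lower by 1.54, 2.61 and 2.63. Vps13B, CG7896, Acph-1 and CG12506 were chosen after their values were seen, and Vps13B was not called without SR replicate 1 or 4 or C replicate 1 or 3 (adjusted p up to 0.146). Probe sets of close relatives that lie side by side, such as CG14499 and CG14500, Mal-A3 and Mal-A4 or GstE5 and GstE6, can share sequence, and the suffix of the probe set of CG13947 marks probes that match other transcripts. Cross-hybridisation was not tested.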

How the data were processed

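RNA of pools of 5 whole virgin females was read on 46 Affymetrix arrays in 12 groups, 4 arrays each except for old C flies on malnutrition and on overfeeding with 3. The authors deposited log2 expression values of 18952 probe sets, made by RMA (background correction, quantile normalization and summary over probes of all arrays). The submitters' processing notes name R 2.7.0 and RMA. RMA ties the arrays to 1 distribution, so changes are relative to the array as a whole. Arrays have no read depth, and their number limits the precision.

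Probe sets were named from the platform annotation, with symbols updated to RefSeq. Of the 18952 probe sets 13646 had 1 symbol, 402 several, 1 none and 4903 were not listed, and 13543 matched RefSeq. AttA, PGRP-SA and PGRP-SC1a were named through the study's supplementary tables. A gene was read by its probe set with the highest mean. No column was left unused (0).

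All 46 arrays were fitted in limma 3.58.1 (R 4.3.3) with 1 mean per group, which gave 34 residual degrees of freedom, and contrasts were tested with eBayes and Benjamini-Hochberg adjustment over all probe sets, at adjusted p under 0.05. The fit was tested on simulated data. Named genes are the 12 highest and 12 lowest called genes with 1 symbol and no overlap between SR and C arrays, up to 4 called genes per list, the 6 highest and 6 lowest interactions, the 4 highest and 4 lowest line markers and genes named in the study's Results. Genes outside this rule are marked in the text. The members, lists and tests were chosen with earlier results of these data known. Lists are described by counts and medians. The alternatives were the 8 or 16 arrays on optimal food alone, a replicate block, a minimum mean of 5, centring on array medians or on neuron genes, the germline mean as a covariate, trend and robust eBayes, array weights, 1 probe set per gene, and leaving out each array.

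Same-numbered SR and C arrays of old flies on optimal food deviated from their group means with correlations of -0.25 to 0.25, so their numbers do not pair them. Those on overfeeding correlated at 0.12 to 0.19 in 3 pairs, and SR replicate 4 has no C partner there, so a pairing is possible but not shown. C arrays of both ages on optimal food correlated at 0.34 to 0.40 in 4 pairs, each closest to its own number. For these C arrays the deposited values pair the numbers, although no source says what a number marks.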

Additional observations from a re-analysis of the deposited data

Results flagged for a closer look

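Single arrays stood far from the other 3 of their group in 20 of 270 groups tested, or 7.41%, where chance gives about 1 in 20. Among SR arrays these were CG43133 in replicate 1 (4.10), Ugt35A1 in replicate 2 (8.44), CG5568 (6.29) and CG6984 (5.47) in replicate 3, and edin in replicate 4 (6.165). Among C arrays they were nxf2 (5.66), Idh3g (10.01), ScsbetaG (8.64) and Cyp6a14 (6.77) in replicate 1, and TpnC41C (9.05), chp (9.09) and edin (7.51) in replicate 3. List means stood apart in SR replicate 2 for UDP-glycosyltransferases (6.045), antioxidants (9.855) and JNK and cell death genes (7.91). In C flies they did so for eggshell genes in replicate 4 (10.86), for ribosome biogenesis (9.24) and tRNA synthetases (8.66) in replicate 2, and for cytosolic ribosome (11.92) and male accessory gland genes (3.92) in replicate 1.

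The line difference in old flies was below that in middle-aged flies, by the interaction test, for CG43133 (-3.30), CG13947 (-3.38), Act88F (-3.34), CG13946 (-2.66), CG14500 (-2.66), CG14499 (-2.62), DptB (-2.58), Send1 (-2.52), fln (-2.28) and Pdh (-2.18). Smaller values of this kind were seen for Strn-Mlck (-1.24 and, in 1630501_a_at, -1.88), Cpr72Ec (-1.62), Cyp4p3 (-1.38), CG12506 (-1.26), Arr1 (-1.19), Lpin (-1.06), chp (-1.05), PGRP-LB (-0.96), bab1 (-0.81) and Fhos (-0.74). It was above that in middle-aged flies for both probe sets of CG42335 (2.03 and 2.21), mey (1.67), foxo (0.75) and spz (0.64). When 1 of the 16 arrays was left out, the interaction lost its call in 11 cases for spz, 10 for PGRP-LB and chp, 9 for Lpin, 8 for CG12506, 7 for foxo, 6 for Cpr72Ec, 4 for Cyp4p3 and bab1, 2 for Arr1 and Fhos and 1 for the brightest probe set of Strn-Mlck, with old C replicate 3 or middle-aged SR replicate 4 among the arrays each time.

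Between foods, the line difference of old flies on optimal food was below that on malnutrition for Strn-Mlck 1630501_a_at (-3.996), fln (-3.74), Def (-2.77), CG13947 (-2.76), Act88F (-2.71), Send1 (-2.46), TpnC4 (-2.37), bab1 (-0.93) and Fhos (-0.89). It was above that on malnutrition for mey (2.31), CG42335 (2.13 and 2.27), the unnamed probe set 1626830_at (1.77) and CG7966 (0.95). For bab1 it was also below that on overfeeding (-1.01).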

How the results depend on the processing

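The count of 824 calls was 367 with the 8 arrays alone, 1240 with the germline mean as a covariate and 429 without C replicates 3 and 4 together, a setting chosen after seeing the data, and 537 to 957 when 1 array was left out. The 451 higher calls were 222 with the neuron genes as the base, 741 with the germline covariate, 296 with 16 arrays, 192 with 8, 218 without C replicates 3 and 4, and 275 to 548 without 1 array. The 373 lower ones were 175 with 8 arrays, 211 without C replicates 3 and 4, and 254 to 409 without 1 array. At middle age the 3165 calls were 8486 with the neuron genes as the base and 1713 to 3196 without 1 array. The 996 interaction calls were 3348 with array weights, 405 with the neuron base, 2153 with a minimum mean of 5, 15 with the germline covariate, 11 without C replicates 3 and 4, and 53 to 2188 without 1 array. Against overfeeding the 4 calls were 44 with array weights, 14 with the germline covariate, 2 with the replicate block, 15 without C replicates 3 and 4, and 2 to 18 without 1 array. Against malnutrition the 54 calls were 93 with array weights, 85 with the neuron base, 143 with the germline covariate, 35 without C replicates 3 and 4, and 38 to 69 without 1 array. The 89 list genes were 42 with 8 arrays, 37 without C replicates 3 and 4, and 52 to 99 without 1 array. The cause of these moves was not tested. A single omission lowered the 824 by over 1.5 times for SR replicate 1 (537) and SR replicate 4 (538). With the replicate block there were 885 calls, 803 of them among the 824 in the same direction. Of 120 single-gene line results 49 kept their call under every alternative that read them and 68 without each single array. Of 39 interaction results 5 and 11 did. An alternative that left out a probe set, such as the minimum mean of 5, was not counted against it. Without C replicates 3 and 4 together 63 of the 120 lost their call. No called single-gene difference changed sign. The split of calls turned with the neuron base (222 higher and 330 lower). Medians of several lists changed sign, among them those of the eggshell genes without SR replicate 4 (-0.16) and of germline (-0.03), DNA replication (-0.08) and mitosis genes (-0.06), antimicrobial peptides (0.02), P450 genes (0.04) and gut serine proteases (0.02) without C replicates 3 and 4. At an unadjusted p under 0.05 there were 3325 probe sets. Of the 824, 177 had a mean under 5, near the dim end of the arrays.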

Other observations

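The largest fall of any probe set in old SR flies was in 1628699_at, which has no gene symbol here and was chosen after its values were seen. It stood at 4.07, 4.35, 4.32 and 4.09 in SR flies, against 7.64, 9.80, 8.16 and 11.87 in C flies (-5.16 ± 0.53, limma adjusted p = 8.77e-09). The SR arrays were all dim and the C arrays spread widely. At middle age its line difference was -3.83. The unnamed probe set 1626830_at, also chosen after its values were seen, was at 7.72, 8.27, 7.67 and 7.52 in SR flies, against 3.97, 4.04, 4.36 and 3.87 in C flies (3.73 ± 0.25, adjusted p = 6.64e-14), and differed by 3.34 at middle age.

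Further runs of 3 neighbouring genes called in 1 direction, named after their values were seen, were CG13126, CG4709 and CG5846 on 2L and CG10154, CG10725 and CG10140 on 3L, higher in SR flies with median differences of 0.49 and 0.93, and CG9459, CG9458 and CG42857 on 3R, lower with a median of -1.13. CG10154 and CG10725 were not called without 5 of the 8 arrays and CG10140 without 6 (SR 1, 2 and 3 and C 2 and 4 in all 3 cases, adjusted p up to 0.18), and CG9458 was not called without SR replicate 4 (adjusted p = 0.0542).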
